A study of Mus musculus with 4 samples.

Results

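Genes that release nucleotides from cells, break down nucleotides or adenosine, or sense adenosine were examined. The tissue was heart ventricle of mice with and without P2Y6, a receptor for the nucleotide UDP. The 10 genes were taken by symbol from the deposited table of 46603 genes: Panx1, Entpd1, Entpd2, Entpd5, Nt5e, Enpp1, Ada, Adora1, Adora2a and Adora2b. Each symbol stood in 1 row, and all 10 passed the minimum of a mean of 10 reads over the libraries.

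Messenger RNA was sequenced from the ventricles of mice of the C57Bl6/J strain, 8 to 12 weeks old, in 4 groups. These were P2Y6-null mice (KO) given isoproterenol, wild-type (WT) mice given isoproterenol, KO mice given saline and WT mice given saline. The treatment was isoproterenol, which drives beta-adrenergic receptors and enlarges the heart, injected into the peritoneum at 50 mg/kg/day for 7 days. Each group held 1 library, and how many hearts stand behind a library is not stated. How the P2Y6-null allele was made, and whether it is null in all cells, is not given in the sources used here.

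Cells release ATP and UTP through channels such as pannexin 1 when stretched or stressed. Enzymes on the cell surface then strip phosphates from these nucleotides in steps, which yields UDP on the way for uridine nucleotides and ends in adenosine for adenine nucleotides. Adenosine acts on its own receptors, of which the A1 type opposes beta-adrenergic signals in heart muscle and the A2 types widen vessels and restrain inflammation, until it is taken up or broken down.

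Levels are given in CPM as deposited, that is reads per 1000000 in the library. Each fold compares the reads of a pair of libraries after TMM scaling, which adjusts for library composition, and a 95% counting interval follows it in brackets. Only an interval wholly beyond 1.5-fold was counted, as higher or as lower. With 1 library per group these intervals cover counting error only, compare libraries and not conditions, and carry no p-value. Gene positions are on GRCm38. In ventricle RNA, fewer cells of a type and less RNA per cell cannot be told apart.

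The libraries held 18771198 to 25637369 reads in the listed genes, and transcripts of the mitochondrial genome took 22.5% to 28.9% of them. P2ry6, the targeted gene, had 0.533 CPM in the KO isoproterenol library and 0.566 CPM in the KO saline library, against 5.89 and 5.11 CPM in the WT isoproterenol and WT saline libraries. The 7 cardiomyocyte markers summed to 44445 CPM in the KO isoproterenol library and to 53848 to 58713 CPM in the other libraries. None of them was at 0.

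The libraries of isoproterenol and saline mice were compared first, within each genotype. In the KO pair 3 of the 10 genes were higher, Enpp1, Panx1 and Ada, and 0 were lower, where 7.09% of the 14301 genes tested were higher, 4.22% lower and 11.3% lay beyond 1.5-fold in either direction. In the WT pair 0 of 10 lay beyond 1.5-fold, against 1.66% of the genes tested, 0.86% higher and 0.797% lower. The median log2 ratio of the 10 genes was 0.53 in the KO pair and 0.10 in the WT pair, and that of all tested genes was 0.00 in both. With total-count scaling the medians were 0.71 for the 10 genes and 0.18 for all genes in the KO pair, and 0.03 and −0.08 in the WT pair.

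**Figure D1:**
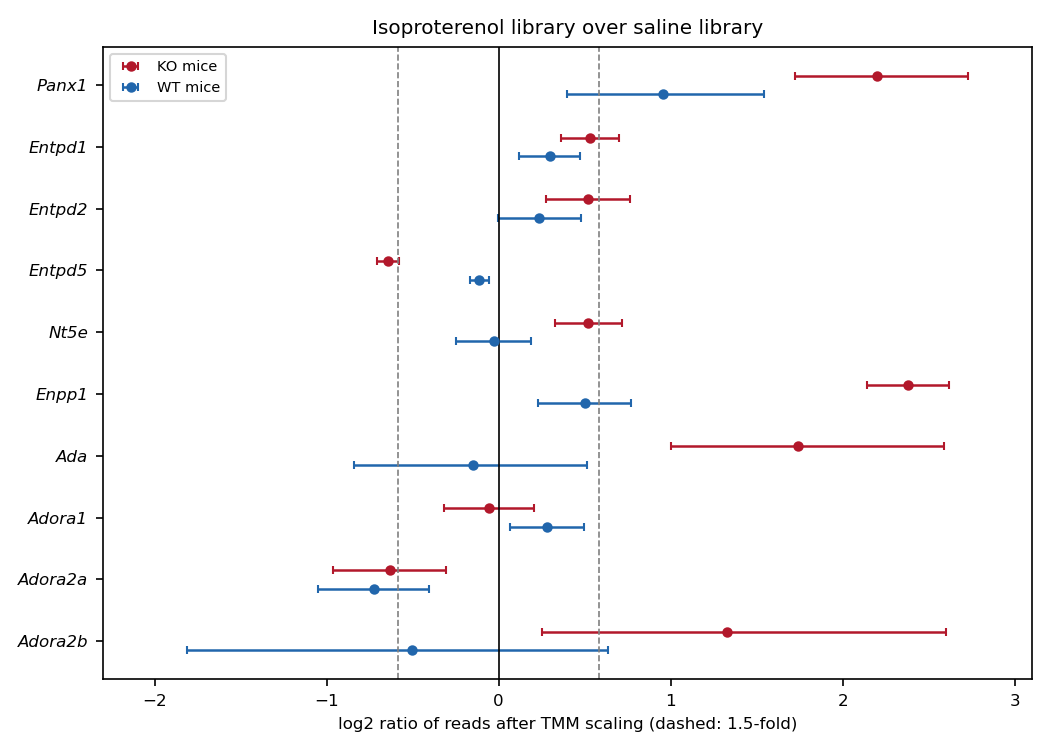
Log2 ratio of reads, isoproterenol library over saline library, for each of the 10 genes in KO mice (red) and WT mice (blue). Bars are 95% counting intervals and dashed lines mark 1.5-fold, and the KO intervals of Panx1, Enpp1 and Ada lie wholly beyond the upper line while no WT interval does.

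The sequences upstream of the start sites of the 3 genes that were higher in the KO pair are given, 250 bases each on the strand of the gene, from RefSeq on GRCm38.p6. Of the 10 genes, 9 had an entry. Capitals mark matches on either strand to the cAMP response half-site TGACG, the AP-1 motif TGAGTCA, the hypoxia response core ACGTG, the GC box GGGCGG and the CCAAT box. All 5 were searched in the 300 bases from 250 before to 50 after each start.
Enpp1 (chr10:24712160-24712409, minus strand): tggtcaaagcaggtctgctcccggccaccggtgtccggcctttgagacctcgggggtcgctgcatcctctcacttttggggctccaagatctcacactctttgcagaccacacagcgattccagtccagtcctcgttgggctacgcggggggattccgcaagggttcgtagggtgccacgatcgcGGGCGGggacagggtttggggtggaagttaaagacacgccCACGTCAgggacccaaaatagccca
Panx1 (chr9:15045479-15045728, minus strand): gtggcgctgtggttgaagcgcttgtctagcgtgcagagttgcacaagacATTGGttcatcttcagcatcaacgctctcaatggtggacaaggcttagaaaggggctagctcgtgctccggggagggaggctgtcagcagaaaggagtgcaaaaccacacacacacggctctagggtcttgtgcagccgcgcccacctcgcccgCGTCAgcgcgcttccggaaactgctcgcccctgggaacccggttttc
Ada (chr2:163750240-163750489, minus strand): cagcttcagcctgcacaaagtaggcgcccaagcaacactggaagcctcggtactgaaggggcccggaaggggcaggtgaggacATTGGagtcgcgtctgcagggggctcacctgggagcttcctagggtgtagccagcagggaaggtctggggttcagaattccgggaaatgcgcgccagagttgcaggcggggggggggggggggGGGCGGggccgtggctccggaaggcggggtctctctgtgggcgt
The half-site TGACG was found in the Enpp1 window, 23 bases before the start, and in the Panx1 window, 47 bases before the start, and not in the Ada window. Of 32851 such windows of all genes, 20.8% hold it. In Enpp1 the match overlaps one to the hypoxia core, which 19.6% of windows hold. The GC box, found in 35.7% of windows, lies in the Enpp1 window 65 bases before the start and in the Ada window 44 bases before the start, with a further one just after the Ada start. The CCAAT box, found in 37.4% of windows, lies in the Panx1 window 201 bases and in the Ada window 167 bases before the start, and the AP-1 motif, in 5.2% of windows, in none of these 3. A match is a description of these letters only.

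Nucleotide release is represented by Panx1 (ENSMUSG00000031934, chromosome 9, 15002128 to 15045478, minus strand), which encodes the channel pannexin 1. Among KO mice its level was 9.59 CPM (180 reads) with isoproterenol and 1.83 CPM (42 reads) with saline. In WT mice it stood at 3.23 CPM (67 reads) in the isoproterenol library and 1.76 CPM (45 reads) in the saline library. The KO isoproterenol library was the highest of the 4, and the saline libraries were alike. Panx1 was thus higher under isoproterenol by 4.58-fold (3.29 to 6.63) in KO mice. The WT ratio was 1.94-fold (1.31 to 2.91), above 1 beyond counting error but not wholly beyond 1.5-fold. The difference of the responses was 1.24 on the log2 scale (0.51 to 1.96), and it lay beyond 1.5-fold only with total-count scaling or when mitochondrial reads were left out of the totals.

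Of the ecto-nucleoside triphosphate diphosphohydrolases, Entpd1 (ENSMUSG00000048120, chromosome 19, 40612366 to 40741602, plus strand) encodes CD39, which takes ATP and UTP down to their monophosphates on endothelial and immune cells. It had 35.9 CPM with isoproterenol and 21.9 CPM with saline in KO mice. WT mice had 25.1 CPM with isoproterenol and 21.6 CPM with saline. Both isoproterenol libraries stood above both saline libraries. The ratio was 1.45-fold (1.29 to 1.63) in KO and 1.23-fold (1.09 to 1.39) in WT mice, and neither was counted. The 8 endothelial markers, by comparison, summed to 1046 CPM in the KO isoproterenol library, 992 CPM in the WT isoproterenol library, 1041 CPM in the KO saline library and 1090 CPM in the WT saline library, with 0 of 8 beyond 1.5-fold in either pair and none at 0. The 9 macrophage markers summed to 535 CPM in the KO isoproterenol library and 277 CPM in the KO saline library, with 6 of 9 higher in the KO pair, and to 275 CPM and 312 CPM with isoproterenol and saline in WT mice, with 0 of 9 beyond 1.5-fold. The part of either cell type in the level of Entpd1 was not tested.

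Entpd2 (ENSMUSG00000015085, chromosome 2, 25395874 to 25401321, plus strand) encodes a related enzyme that prefers triphosphates and so leaves diphosphates. It had 17.2 CPM with isoproterenol and 10.6 CPM with saline in KO mice. For WT mice the values were 13.1 CPM (isoproterenol) and 11.8 CPM (saline). Again both isoproterenol libraries stood above both saline libraries, with ratios of 1.43-fold (1.21 to 1.70) in KO and 1.18-fold (0.996 to 1.39) in WT mice. Exons of Entpd2 overlap those of Npdc1 on the same strand, which had 752 and 379 reads in the isoproterenol and saline libraries of KO mice and 403 and 459 in those of WT mice. How reads in the overlap were counted is not given in the sources used here, and its part in the level of Entpd2 was not tested.

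Entpd5 (ENSMUSG00000021236, chromosome 12, 84373857 to 84409029, minus strand) encodes an enzyme of the endoplasmic reticulum that hydrolyses UDP and GDP in glycoprotein folding. It went the other way. Its level was 164 CPM (3072 reads) with isoproterenol and 225 CPM (5172 reads) with saline in KO mice. WT mice had 214 CPM (4431 reads) with isoproterenol and 244 CPM (6267 reads) with saline. The KO isoproterenol library was the lowest of the 4. The KO ratio was 1.56-fold lower (1.49 to 1.63) and so stopped just short of being counted, and the WT ratio was 1.08-fold lower (1.04 to 1.12). With DESeq2 size factors the KO interval lay wholly beyond 1.5-fold. Cardiomyocyte markers moved the same way in the KO pair, with 3 of 7 lower and a median log2 ratio of −0.57. In the WT pair they did not, with 0 of 7 lower and a median of 0.07. The part of these markers in the level of Entpd5 was not tested.

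Enpp1 (ENSMUSG00000037370, chromosome 10, 24637914 to 24712159, minus strand) encodes the pyrophosphatase that cleaves ATP to AMP and pyrophosphate, an inhibitor of mineralization. It showed the largest ratio of the 10 genes in the KO pair. Its level was 44.7 CPM (840 reads) with isoproterenol and 7.58 CPM (174 reads) with saline in KO mice. For WT mice the values were 11.5 CPM (238 reads) with isoproterenol and 8.58 CPM (220 reads) with saline. The KO isoproterenol library stood far above the others. The ratio was 5.19-fold (4.42 to 6.16) in KO and 1.41-fold (1.17 to 1.71) in WT mice. The difference of the responses was 1.88 on the log2 scale (1.52 to 2.23) and lay beyond 1.5-fold.

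Nt5e (ENSMUSG00000032420, chromosome 9, 88327197 to 88372092, plus strand) encodes CD73, the enzyme that turns AMP into adenosine at the cell surface. It had 27.0 CPM with isoproterenol and 16.5 CPM with saline in KO mice. WT mice had 14.8 CPM with isoproterenol and 16.0 CPM with saline. The KO isoproterenol library was the highest and the other libraries were alike. The ratio was 1.44-fold (1.25 to 1.64) in KO mice, while in WT mice it was 1.02-fold lower (0.877 to 1.19), within counting error of no difference.

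Ada (ENSMUSG00000017697, chromosome 2, 163726584 to 163750239, minus strand) encodes adenosine deaminase, which converts adenosine to inosine. It is a scarce transcript here, with 3.20 CPM (60 reads) in the KO isoproterenol library and 0.827 CPM (19 reads) in the KO saline library. In WT mice it had 1.59 CPM (33 reads) in the isoproterenol library and 1.87 CPM (48 reads) in the saline library. The KO libraries were the highest and the lowest of the 4, with the WT libraries between them, but the counting intervals of neighbouring levels overlapped. The ratio was 3.35-fold (2 to 6.04) in KO mice, and 1.11-fold lower (0.699 to 1.79) in WT mice. The KO saline library, on which the KO ratio is based, was 2.15-fold lower (1.26 to 3.94) than the WT saline library.

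**Figure D2:**
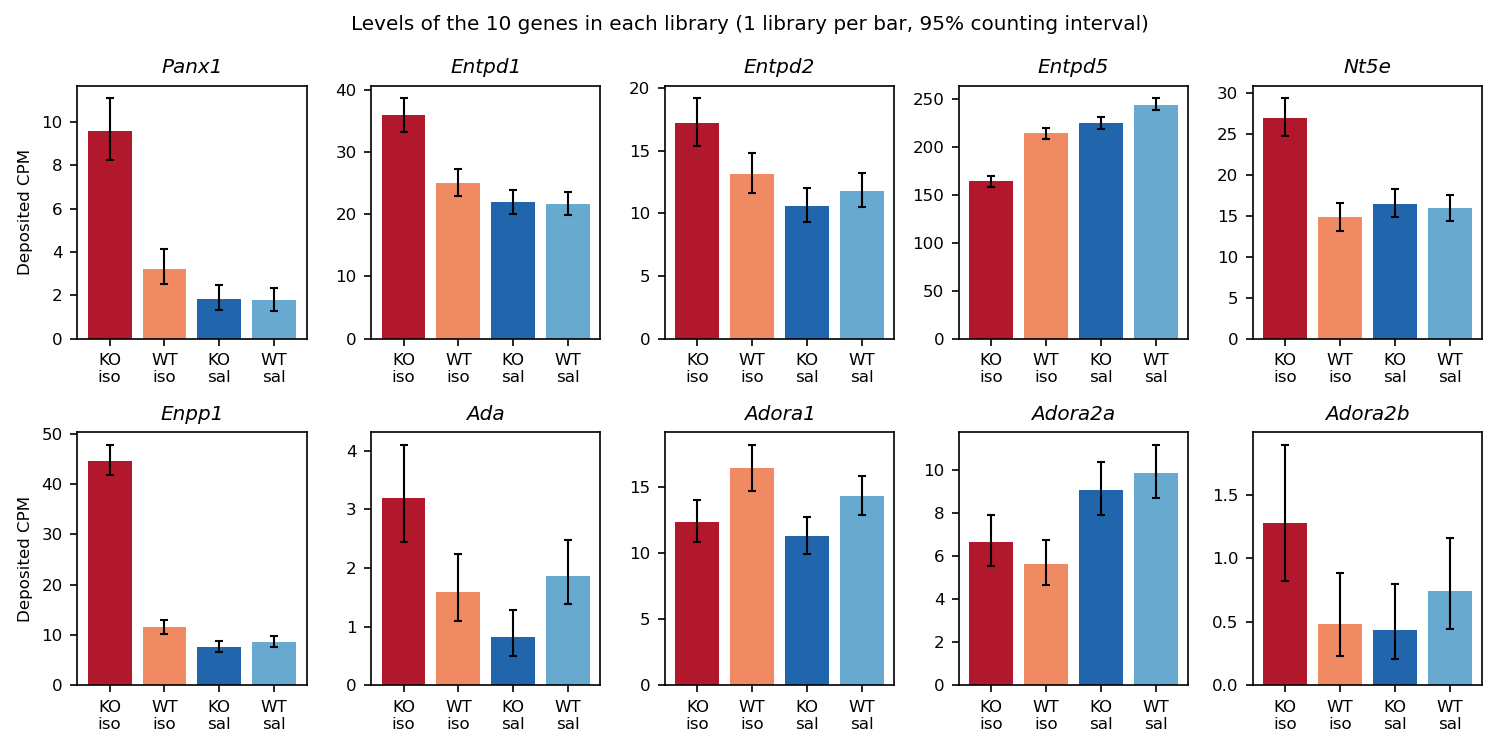
Deposited CPM of each of the 10 genes in the 4 libraries (KO iso, KO given isoproterenol; WT iso, WT given isoproterenol; KO sal and WT sal, given saline), each axis starting at 0, with 95% counting intervals. Panx1, Entpd1, Entpd2, Nt5e, Enpp1, Ada and Adora2b are highest in the KO isoproterenol library, and Entpd5 is lowest there. For Ada and Adora2b the interval of that library overlaps that of the WT saline library. Adora2a is lower in both isoproterenol libraries.

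Of the adenosine receptor genes, 0 of 3 lay beyond 1.5-fold in any comparison. The share of all genes tested was 0.489% to 11.3% by comparison, so 0 of 3 is near the background. Adora2a (ENSMUSG00000020178, chromosome 10, 75316877 to 75334784, plus strand), a receptor that raises cAMP, had 6.66 CPM with isoproterenol and 9.10 CPM with saline in KO mice. For WT mice the values were 5.65 CPM (isoproterenol) and 9.87 CPM (saline). Both isoproterenol libraries stood below both saline libraries. The ratio was 1.55-fold lower (1.24 to 1.95) in KO and 1.65-fold lower (1.32 to 2.08) in WT mice, so that neither was counted. The difference of the responses was 0.09 on the log2 scale (−0.36 to 0.54).

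Adora1 (ENSMUSG00000042429, chromosome 1, 134199223 to 134235431, minus strand), the receptor that lowers cAMP, had 12.3 CPM with isoproterenol and 11.3 CPM with saline in KO mice. WT mice had 16.4 CPM with isoproterenol and 14.3 CPM with saline. Both KO libraries stood below both WT libraries. The KO libraries were lower than the WT libraries by 1.54-fold (1.30 to 1.83) under isoproterenol and 1.22-fold (1.04 to 1.44) under saline, and neither was counted. The isoproterenol ratio was 1.21-fold (1.04 to 1.41) in WT mice. In KO mice it was 1.04-fold lower (0.867 to 1.25), or on the log2 scale −0.06, which became 0.13 with total-count scaling and 0.05 without mitochondrial reads. Exons of Adora1 overlap those of Mybph on the opposite strand, a gene with 1 to 4 reads per library.

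Adora2b (ENSMUSG00000018500, chromosome 11, 62248984 to 62266453, plus strand), the low-affinity receptor for adenosine, was the rarest of the 10 by reads. It had 1.28 CPM (24 reads) with isoproterenol and 0.435 CPM (10 reads) with saline in KO mice. For WT mice the values were 0.483 CPM (10 reads) with isoproterenol and 0.741 CPM (19 reads) with saline. The KO isoproterenol library was the highest. Its interval (0.819 to 1.9 CPM) overlapped those of the WT isoproterenol (0.231 to 0.888 CPM) and WT saline (0.446 to 1.16 CPM) libraries. The ratio was 2.52-fold (1.19 to 6.06) in KO mice and 1.42-fold lower (0.643 to 3.5) in WT mice, and neither was counted. The KO interval, wide at this depth, reached below 1.5-fold, and the WT ratio itself lay within 1.5-fold.

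Ratios between genes of the same library do not depend on scaling, and 2 such ratios were formed after the values were seen. Reads of Adora1 per kb of exon over those of Adora2a were 0.978 (0.783 to 1.23) in the KO isoproterenol library and 0.656 (0.545 to 0.791) in the KO saline library. In WT mice this ratio was 1.54 (1.24 to 1.91) in the isoproterenol library and 0.766 (0.651 to 0.902) in the saline library. Adora2a was thus the more abundant per kb in both saline libraries, Adora1 in the WT isoproterenol library, and in the KO isoproterenol library they could not be separated. The ratio was 1.49-fold higher (1.12 to 1.98) in the isoproterenol than in the saline library of KO mice, and 2-fold higher (1.54 to 2.61) in WT mice. Under isoproterenol it was 1.57-fold lower (1.16 to 2.12) in KO than in WT.

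The other ratio set Ada against Adk, whose product adenosine kinase returns adenosine to AMP inside cells. Reads of Ada per kb over those of Adk were 0.144 (0.109 to 0.186) in the KO isoproterenol library and 0.0262 (0.0157 to 0.041) in the KO saline library, and 0.0645 (0.0443 to 0.0909) in the WT isoproterenol library and 0.0557 (0.041 to 0.074) in the WT saline library. Adk was the more abundant in all 4 libraries. The ratio was 5.40-fold higher (3.23 to 9.02) in the isoproterenol than in the saline library of KO mice, and 1.16-fold (0.746 to 1.81) in WT mice.

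**Figure D3:**
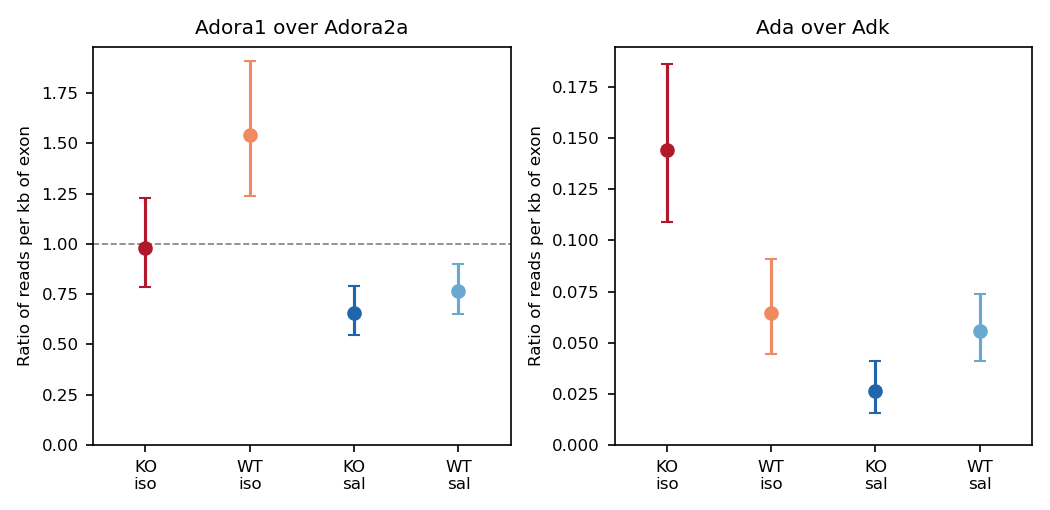
Reads per kb of exon of Adora1 over Adora2a (left, dashed line at 1) and of Ada over Adk (right) in each library (iso, isoproterenol; sal, saline), with 95% counting intervals. Adora1 over Adora2a is 1.54 in the WT isoproterenol library and 0.766 in the WT saline library, and Ada over Adk is highest, 0.144, in the KO isoproterenol library.

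KO and WT libraries were then compared within each treatment. The KO isoproterenol library that enters here also entered the KO pair above, so these counts are not independent of those. Under isoproterenol 2 of the 10 genes were higher in KO, Enpp1 by 3.36-fold (2.91 to 3.90) and Panx1 by 2.55-fold (1.92 to 3.44), and 0 were lower. Of all genes tested, 4.2% were higher, 1.8% lower and 6% lay beyond 1.5-fold in either direction. Nt5e, at 1.57-fold (1.36 to 1.82), passed that limit when scaled by total counts and under no other scaling. Entpd5 was 1.51-fold lower (1.45 to 1.59), Ada was at 1.72-fold (1.11 to 2.73) and Adora2b at 2.22-fold (1.05 to 5.36), none of them counted.

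Under saline 0 of the 10 genes lay beyond 1.5-fold, against 0.489% of all genes tested, 0.273% higher and 0.217% lower. The median log2 ratio was −0.09, and 7 of 10 ratios were below 1. The ratios were 1.08-fold (0.691 to 1.68) for Panx1, 1.07-fold (0.931 to 1.24) for Nt5e and 1.05-fold (0.926 to 1.18) for Entpd1, each within counting error. Enpp1 was 1.09-fold lower (0.893 to 1.34). Besides Ada and Adora1, Entpd5 was the only gene whose interval excluded 1, at 1.05-fold lower (1.01 to 1.09).

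**Figure D4:**
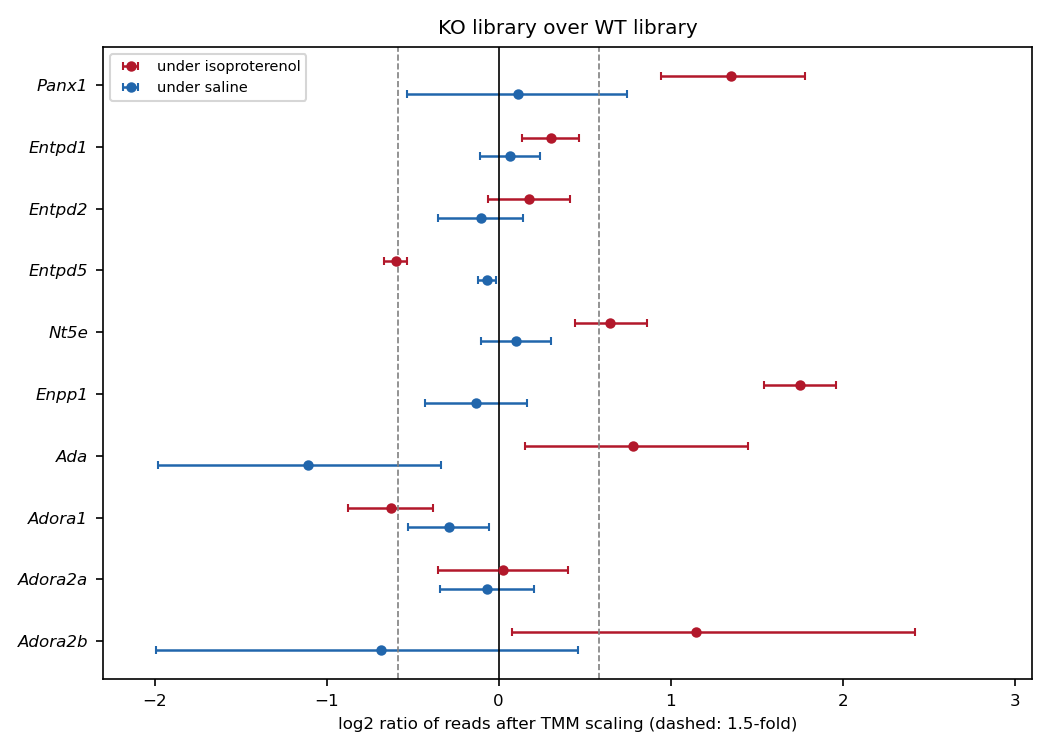
Log2 ratio of reads, KO library over WT library, for each of the 10 genes under isoproterenol (red) and under saline (blue), with 95% counting intervals and dashed lines at 1.5-fold. Panx1 and Enpp1 lie beyond the upper line under isoproterenol, at 2.55-fold and 3.36-fold, and no gene has its whole interval beyond a line under saline.

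The difference of the isoproterenol responses, KO minus WT, lay beyond 1.5-fold for 2 of the 10 genes, Enpp1 and Ada, both with the larger ratio in KO, against 3.83% of all genes in that direction, 1.73% in the other and 5.57% in either. For Ada it was 1.89 on the log2 scale (0.92 to 2.86). With an interval beyond 2-fold only Enpp1 was left, and with total-count scaling Panx1 and Adora2b joined them. The isoproterenol ratio pointed opposite ways in KO and WT mice for 4 of the 10 genes, against 34.5% of all genes tested, a share near the background. The difference of responses has no error term in the design and was not tested.

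Over the 4 libraries, an additive fit of genotype and treatment with limma on log2(CPM + 1) leaves 1 residual degree of freedom per gene. That residual is the difference of the responses itself. The limma SE and p-values use a spread drawn toward that of genes of similar level, so they rest largely on other genes. For treatment it called 2 of the 10 genes, Panx1 with a log2 change of 1.26 ± 0.30 (SE, limma adjusted p = 0.0241) and Enpp1 with 1.40 ± 0.32 (limma adjusted p = 0.0227), against 2.57% of all genes, 1.69% higher and 0.881% lower. Both were higher in 2 of 2 isoproterenol libraries than in the saline library of their genotype. The log2 ratios of the KO and WT pairs were 2.20 and 0.96 for Panx1 and 2.38 and 0.50 for Enpp1. The fitted change thus stands for neither pair by itself. Both calls were lost with TMM-scaled CPM (limma adjusted p = 0.248 and 0.285), edgeR (0.15 and 0.194) and DESeq2 (0.102 and 0.861). For genotype limma called 0 of 10, against 0.0979% of all genes (0.042% higher and 0.0559% lower), with 2 of 10 at an unadjusted p under 0.05, Enpp1 and Panx1, against 4.1% of all genes. The KO against WT log2 ratios of Enpp1 and Panx1 were 1.75 and 1.35 under isoproterenol, and −0.13 and 0.11 under saline. The edgeR and DESeq2 fits for genotype called 0 of 10 as well, with 1 of 10 (Adora1) at an unadjusted p under 0.05 in edgeR, against 3.63% of all genes, and 0 in DESeq2, against 1.32%.

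The marker lists of other cells were mixed in the KO pair, where 7.09% of all genes tested were higher. Some lists held genes that were higher, and the endothelial list held none. The macrophage markers are given beside Entpd1. The 8 fibroblast markers summed to 2982 CPM there, 2524 CPM in the WT isoproterenol library, 2310 CPM in the KO saline library and 2587 CPM in the WT saline library, with 4 of 8 higher and 1 lower in the KO pair. The 5 proliferation markers summed to 49.5 CPM, 22.2 CPM, 9.62 CPM and 18.7 CPM in the same libraries, with 5 of 5 higher in the KO pair. None of these markers was at 0 in any library. Of the remaining lists, 2 of 4 atrial, 1 of 7 mural and 0 of the lymphocyte, Schwann and adipocyte markers were higher in the KO pair. The part of these lists in the levels of the 10 genes was not tested.

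Compared per kb of exon, the order of the 10 genes was led by Entpd5, with 27.1 CPM per kb in the KO isoproterenol library, 35.4 in the WT isoproterenol library, 37.3 in the KO saline library and 40.5 in the WT saline library. Entpd2 came next and then Entpd1 in every library. Panx1 and Adora2b held the last places in every library. Their intervals overlapped except in the KO isoproterenol library, where that of Panx1 lay above that of Adora2b and overlapped that of Ada. Enpp1 was 4th in the KO isoproterenol library with 4.36, and 7th or 8th in the others with 0.739 to 1.12. Nt5e was 5th in the KO isoproterenol library with 3.13 and 6th in the others with 1.72 to 1.92.

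The wider pathway was described with 48 other genes in 6 lists, of which 35 passed the read minimum. In the KO pair 2 of the 35 were higher and 3 lower, against 7.09% and 4.22% of all genes tested. Their median log2 ratio was 0.11, against 0.00 for all genes. In the WT pair 1 was higher and 0 lower, against 0.86% and 0.797%, with a median of −0.04 against 0.00. With total-count scaling the medians were 0.29 for the 35 and 0.18 for all genes in the KO pair, and −0.12 and −0.08 in the WT pair. Among release genes, Panx2, a relative of pannexin 1, was higher in the WT isoproterenol library, with 3.28 CPM (68 reads) there and 1.01 CPM (26 reads) in the WT saline library, or 3.38-fold (2.15 to 5.60). In KO mice Panx2 had 2.13 CPM (40 reads) under isoproterenol and 0.958 CPM (22 reads) under saline. That ratio, 1.94-fold (1.14 to 3.46), was above 1 beyond counting error but was not counted. The difference of its responses was −0.80 on the log2 scale (−1.79 to 0.185), within counting error of no difference. The other release genes tested, among them the gap junction gene Gja1 and the volume-regulated anion channel genes Lrrc8a to Lrrc8e, were not counted in any comparison.

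Of 6 extracellular enzymes tested besides the 10 genes, Alpl, the tissue-nonspecific alkaline phosphatase that also acts on pyrophosphate, was higher in the KO pair, with 65.0 CPM under isoproterenol and 34.9 CPM under saline, or 1.64-fold (1.5 to 1.8). Its WT ratio was close to that, 1.49-fold (1.36 to 1.63), but was not counted. The difference of its responses was 0.14 on the log2 scale (−0.04 to 0.32). Enpp2, which makes lysophosphatidic acid and is known as autotaxin, was lower in the KO pair by 1.99-fold (1.64 to 2.43), with 8.10 CPM under isoproterenol and 14.2 CPM under saline. Art3, of the ADP-ribosyltransferase family, was lower in that pair by 1.96-fold (1.87 to 2.05), with 138 CPM under isoproterenol and 239 CPM under saline. In WT mice Enpp2 was 1.2-fold lower (1.01 to 1.43) and Art3 1.33-fold lower (1.28 to 1.39), neither of them counted. Cd38, which consumes NAD, had 29.1 CPM with isoproterenol and 15.5 CPM with saline in KO mice. WT mice had 16.6 CPM with isoproterenol and 21.8 CPM with saline. It was the 1 gene of the 35 with a difference of responses beyond 1.5-fold, 1.03 on the log2 scale (0.75 to 1.30). The share of all genes tested was 5.57%.

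Of 7 genes of adenosine and AMP metabolism tested, Adk was lower in the KO pair by 1.61-fold (1.52 to 1.71), with 94.6 CPM under isoproterenol and 135 CPM under saline. Pnp, the purine nucleoside phosphorylase that acts on inosine, was higher by 2.02-fold (1.65 to 2.48), with 15.1 CPM and 6.58 CPM in the same libraries, although its close copy Pnp2 (3 to 10 reads per library) could share reads with it. In WT mice Adk was 1.29-fold lower (1.22 to 1.36) and Pnp was at 1.02-fold (0.827 to 1.26), neither of them counted. None of 8 intracellular nucleotidases and none of 4 nucleoside transporters tested was counted in any comparison. The genes under the read minimum were Panx3, Abcc6, Calhm1, Entpd3, Entpd8, Acpp, Entpd4, Slc29a4, Slc28a1, Slc28a3, Pnp2, Ampd1 and the receptor gene Adora3, which had 2 to 8 reads per library. In none of KO against WT under either treatment was any of the 35 genes counted. Of all genes tested, 6% were counted under isoproterenol and 0.489% under saline.

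**Figure D5:**
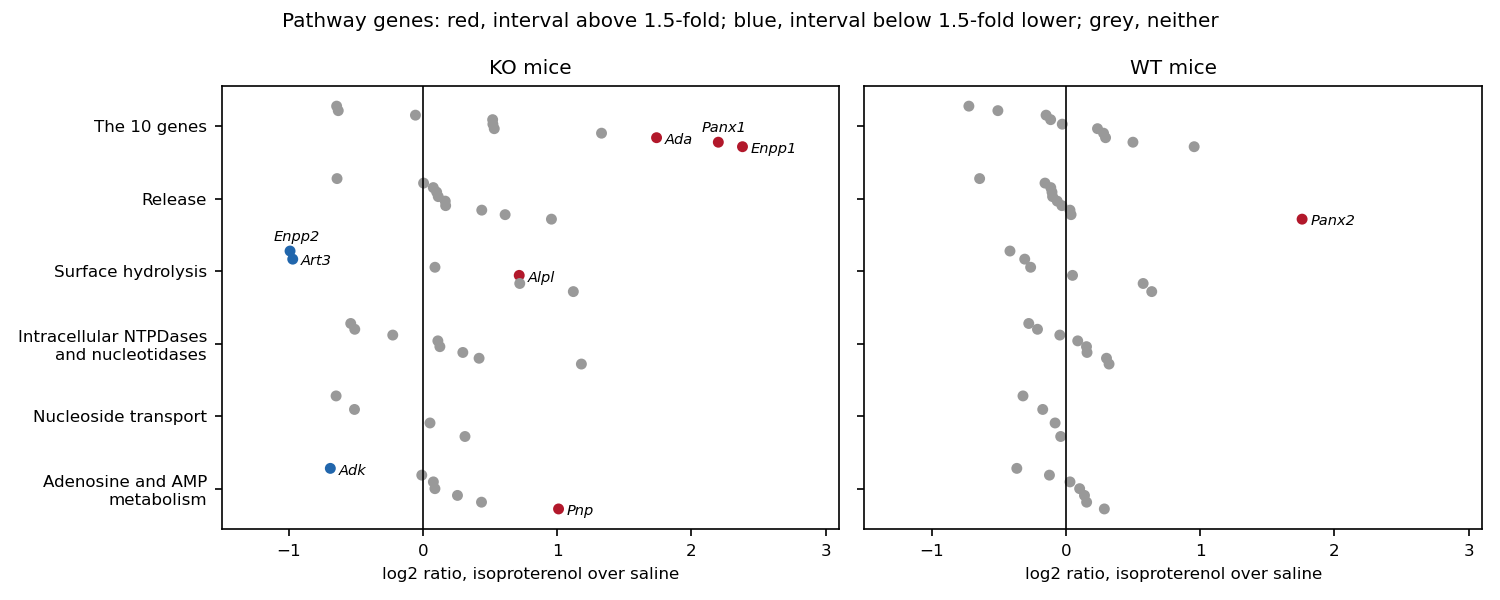
Log2 ratio of reads, isoproterenol library over saline library, for the 10 genes and the tested genes of 5 further lists, in KO mice (left) and WT mice (right). Named points have a 95% counting interval wholly beyond 1.5-fold, higher in red and lower in blue, and in WT mice Panx2, at 3.38-fold, is the only one.

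The genes whose levels over the 4 libraries followed Enpp1 most closely were Ddah1, Steap2 and Megf10, by the largest gap between log2 levels centred on each gene's own mean. The gap was 0.03 for Ddah1, with 43.2 CPM in the KO isoproterenol library, 10.7 CPM in the WT isoproterenol library, 7.18 CPM in the KO saline library and 8.23 CPM in the WT saline library. It was 0.08 for Steap2 and 0.08 for Megf10. Within a gap of 0.25 lay 31 genes, so that 4 libraries single out no one gene.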

How the data were processed

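Per the labels' protocols, stranded poly(A) libraries were made from ventricle RNA, and the submitters' processing notes name HTSeq and the builds GRCm38.p4 and mm10, with no role or setting. Aligner and annotation release: not given in the sources used here. The authors deposited 1 table of CPM, in which a column that names a genotype but no treatment was read as saline. Each column sums to 1000000, and dividing by the smallest value above 0 gave whole reads, within 0.01, for 100% of values, so the reads were recovered. Intervals cover counting error only, since each group holds 1 library. Reads carry no molecular identifiers, so duplicate reads could not be told from separate molecules, and the intervals may be too narrow.

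For each pair of libraries the ratio of reads was formed after adding 0.5 to both and scaling by TMM from edgeR 4.0.16. Its 95% interval is the exact Clopper-Pearson one for the split of reads. Genes averaging 10 or more reads entered, 14301 in all. The difference of responses has a 95% interval from the 4 counts, by a normal approximation. Intervals of single levels are exact Poisson ones. The additive fit took log2(CPM + 1), unscaled, into limma 3.58.1 with its trend option, with Benjamini-Hochberg adjustment over all genes tested at 0.05, and edgeR and DESeq2 1.42.0 on recovered reads as alternatives. The p-values rest on 4 libraries and on the spread left after both effects, which each of these tools partly pools over genes. The limma SE is thus not the spread of the gene alone. The scripts were tested on simulated data, with counting error only for the pairs and no difference between genotypes for the fits. That checks the code and not how well 1 library stands for its group. Gene positions and exon lengths came from GENCODE M21 (GRCm38), a release that may differ from that of the authors. Genes were named by a rule: the 10 members, P2ry6, pathway genes beyond 1.5-fold or under the read minimum, and the 3 genes closest in pattern to the member counted most often. The members, lists and rule were chosen with earlier results of these data known, and genes named outside the rule (Npdc1, Mybph, Gja1, Lrrc8a to Lrrc8e) serve as context. Alternatives were 3 other scalings, no read minimum, other fold limits and other fits.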

Additional observations from a re-analysis of the deposited data

Results flagged for a closer look

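For 4 of the 10 genes the isoproterenol ratio pointed opposite ways in KO and WT mice, against 34.5% of all genes tested, so that the count is near the background. The difference of the log2 ratios, KO minus WT, was 1.89 for Ada, 1.84 for Adora2b, 0.55 for Nt5e and −0.34 for Adora1. The first 3 had the higher ratio in KO and the last the higher ratio in WT. These differences were not tested, since each group holds 1 library. The WT ratios of Ada, Adora2b and Nt5e and the KO ratio of Adora1 were within counting error of no difference, and the KO ratio of Adora1 turned positive with total-count scaling (0.13) and without mitochondrial reads (0.05). Adora2b rests on 10 to 24 reads per library.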

How the results depend on the processing

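No paired analysis was possible because each group holds 1 library, and leaving out a library leaves no residual degree of freedom in the additive fit. With total-count scaling the median over all genes shifted, in log2, by 0.18 in the KO pair, −0.08 in the WT pair, 0.21 for KO against WT under isoproterenol, −0.05 under saline and 0.26 for the difference of responses. The share of higher calls then became 80.2%, 40.6%, 90.3%, 49.3% and 92.6%, against 62.7%, 51.9%, 69.9%, 55.7% and 68.8% in the same order. Leaving mitochondrial reads out of the totals gave 74% in the KO pair, 81.1% under isoproterenol and 82.5% for the difference. An interval beyond 2-fold left 73.5% higher in the KO pair and 82.3% for the difference. Of 50 ratios of the 10 genes, total counts changed 3 calls, totals without mitochondrial reads 1, DESeq2 size factors 1, an interval beyond 2-fold 2 and no read minimum 0.

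With an interval beyond 2-fold the genes counted were 701 in the KO pair (1618 at 1.5-fold), 84 in the WT pair (237), 283 for KO against WT under isoproterenol (858), 31 under saline (70) and 265 for the difference (796). With any interval that excludes 1 they were 7836, 4494, 6439, 3059 and 5624 of 14301 tested. In the same order, 3888, 2189, 3267, 1605 and 2702 of these were higher and 3948, 2305, 3172, 1454 and 2922 lower. Of the 10 genes, that rule counted 7 higher and 2 lower in the KO pair, 4 and 2 in the WT pair, 6 and 2 under isoproterenol, 0 and 3 under saline and 5 and 2 for the difference. The 2-fold rule left 1 higher under isoproterenol and 1 for the difference, where 222 and 218 of all genes tested were higher. Total counts gave 4 higher for the difference, against 1062 of all genes. DESeq2 size factors gave 1 lower in the KO pair, against 623 of all genes.

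The additive treatment fit called 368 genes, but 1 with TMM-scaled CPM, 965 with no read minimum, 22 with edgeR and 174 with DESeq2. Of the 10 genes it called 2, and 0 with TMM-scaled CPM, edgeR or DESeq2. The genotype fit called 14 genes, but 22 with a pseudocount of 0.5, 0 with TMM-scaled CPM, 195 with no read minimum and 3 with edgeR, and of the 10 genes it called 0, or 1 with no read minimum. Its log2 change of Ada, 0.02, became −0.01 with the pseudocount of 0.5, −0.04 with TMM-scaled CPM, −0.09 with edgeR and −0.14 with DESeq2. That of Adora2a, 0.05, became −0.02 in each of the last 3. The cause of these changes was not tested. Depth limits Adora2b and Ada most, with 10 to 60 reads per library.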

Other observations

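The upstream windows of the 9 genes with a RefSeq entry, 11 in all since Entpd1 and Adora1 have a pair each, were searched for the same motifs. TGACG was found in 5 of the 11, among them both windows of Entpd1 and that of Entpd5, 15 bases before the start. ACGTG was found in 4, GGGCGG in 7, CCAAT in 5 and TGAGTCA in 1, that of Entpd2, 99 bases before the start. Of all 32851 windows these motifs lie in 20.8%, 19.6%, 35.7%, 37.4% and 5.2% in the same order. The window of Adora2b, whose transcript was the rarest by reads, held 6 matches to the GC box. These counts describe letters and were not tested.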
